A study of Mus musculus with 12 samples.

Results

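The genes described here are 44 genes of DNA replication and of mitosis, 22 for each process, followed through 12 single cells picked from mouse Achilles tendons. They were chosen by symbol, with earlier results of these data known, and all 44 were found among the 55418 gene symbols of the count table. The study had already listed Nasp among its top genes higher in these Tnmd-/- cells. For each gene the raw count, its CPM (the count divided by the cell's total, times 1000000) and detection at 1 and at 10 counts were read in every cell. The question was whether any picked cell carried the transcripts of a dividing cell, and how Nasp, which encodes a histone chaperone, stood beside the other genes of S phase.

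A dividing cell first licenses its replication origins, when Cdc6 and Cdt1 load the Mcm2 to Mcm7 helicase onto DNA, and then copies the genome in S phase with the sliding clamp Pcna, the single-strand binding protein Rpa2 and deoxynucleotides made by ribonucleotide reductase and thymidylate synthase. Mitosis follows, driven by Cdk1 with cyclins A and B, by the Aurora and Polo-like kinases, and by centromere and spindle proteins that the anaphase-promoting complex later destroys. Many of these genes are switched on in waves during the cycle, through E2F sites or CHR elements in their promoters, and are low in resting cells, and adult tendon is a tissue with little cell division.

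Cells carried ScxGFP, in which green fluorescent protein reports on Scx, a transcription factor of the tendon lineage, on a background labelled C57BL/6 and given as C57BL/6J in the methods, and came from untreated, uninjured tendons digested with collagenase for 8 hours. Of them, 6 were Tnmd-/- ScxGFP+, with a constitutive knockout of tenomodulin, and 6 were WT ScxGFP+. Tnmd lies on the X chromosome, and the study's WT group took in hemizygous males and both homozygous and heterozygous females. The labels give neither age nor animal for any cell, and the methods name 2 tendons without saying which cell came from which. Each genotype was therefore treated as 1 sample, no test between genotypes was made, and every interval given covers counting error only.

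Total counts ran from 892713 to 10333351 among the Tnmd-/- and from 4516036 to 13613080 among the WT cells, and 1350 to 3633 genes per cell had at least 10 counts. The fewest such genes were found in WT cell 14 (1350), Tnmd-/- cell 7 (1413, also the lowest total) and Tnmd-/- cell 3 (1624), and Tnmd-/- cell 3 had 51.8% of its counts in mitochondrial genes against 1.75% to 7.30% in the other cells. Tnmd had 0 to 5 counts in the Tnmd-/- cells, but also 0 to 7 in 5 of the WT cells, and 10178 in WT cell 14. Scx, the gene behind the reporter, had at least 10 counts in 3 WT cells and in no Tnmd-/- cell. Among tendon fibroblast markers, the matrix genes Dcn, Comp and Col1a2 had at least 10 counts in all 12 cells. Thbs4 did so in 10 cells and Fmod in 8. Of 12 tendon fibroblast markers, 3 to 7 reached 10 counts in a Tnmd-/- cell and 5 to 10 in a WT cell. Markers of other cell types were low: of 5 endothelial markers only Pecam1 passed 10 counts (160, in Tnmd-/- cell 1), none of 6 immune or 5 red blood cell markers did, and the mural gene Cspg4 did in 6 cells.

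The sequence upstream of 4 members is shown because these are the genes the results turn on: Nasp, Hmgb2 as the mitosis member found in most cells, Mcm6 as a replication gene with E2F sites, and Mki67, which encodes the proliferation antigen Ki-67. Each line gives the 250 bases before the RefSeq start in GRCm38.p6, 5′ to 3′ on the gene's own strand. Capitals mark E2F sites (TTTCCCGC, TTTGGCGC, TTTCGCGC or TTTGCCGC), CHR elements (TTTGAA or TTCGAA) and CCAAT boxes, on either strand.
Nasp: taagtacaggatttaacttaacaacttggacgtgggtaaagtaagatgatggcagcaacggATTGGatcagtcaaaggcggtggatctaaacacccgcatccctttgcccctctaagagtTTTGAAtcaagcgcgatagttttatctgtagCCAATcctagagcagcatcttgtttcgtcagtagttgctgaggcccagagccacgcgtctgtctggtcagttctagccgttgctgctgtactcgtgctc
Hmgb2: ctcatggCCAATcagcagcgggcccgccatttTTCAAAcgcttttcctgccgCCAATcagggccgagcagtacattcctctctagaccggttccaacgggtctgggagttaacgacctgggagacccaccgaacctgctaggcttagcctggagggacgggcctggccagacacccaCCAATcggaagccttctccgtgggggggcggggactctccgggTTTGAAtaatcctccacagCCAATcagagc
Mcm6: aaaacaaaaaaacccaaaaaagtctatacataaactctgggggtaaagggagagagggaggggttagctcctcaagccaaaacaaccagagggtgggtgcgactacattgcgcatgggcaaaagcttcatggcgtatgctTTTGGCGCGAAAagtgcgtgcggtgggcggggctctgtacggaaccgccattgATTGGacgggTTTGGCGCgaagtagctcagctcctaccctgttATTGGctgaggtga
Mki67: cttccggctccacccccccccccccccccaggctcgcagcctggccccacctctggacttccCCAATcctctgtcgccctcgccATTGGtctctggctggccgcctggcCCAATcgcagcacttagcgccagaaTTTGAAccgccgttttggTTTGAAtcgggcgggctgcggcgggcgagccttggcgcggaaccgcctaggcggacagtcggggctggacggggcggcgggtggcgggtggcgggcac
The Nasp window lies at chr4:116627952-116628201 on the minus strand, Hmgb2 at chr8:57511593-57511842 on the plus strand, Mcm6 at chr1:128359706-128359955 on the minus strand and Mki67 at chr7:135716380-135716629 on the minus strand.

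In the Nasp window these letters gave 1 CHR element, 130 bases before the start, and CCAAT boxes at 189 and 99 bases, with no E2F site. Mcm6 had 3 E2F sites, at 110, 106 and 47 bases before the start, of which the first pair overlap on opposite strands, and 2 CCAAT boxes. Hmgb2 held 2 CHR elements and 4 CCAAT boxes, and Mki67 held 2 and 3. Of the members, 37 had an upstream sequence to search. An E2F site was found in 5 of 18 replication members (27.8%), 1 of 19 mitosis members (5.26%) and 2.16% of the 27025 genes with such a sequence. CHR elements were found in 22.2% of the replication members, 47.4% of the mitosis members and 19.6% of all genes. For the CCAAT box these shares were 66.7%, 84.2% and 37.5%. The matches describe letters in a window, and no match says nothing about whether a factor binds.

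Most of the 44 members were not seen in these cells. No cell had the transcripts of S phase or of mitosis as a set by the pattern used, 11 of 22 members at 10 counts. At most 5 of the 22 replication members and at most 4 of the 22 mitosis members reached 10 counts in any cell. Thus 0 of 12 cells met either pattern, but whether a dividing cell would meet it in these libraries was not measured. With 5 of 22 members as the limit, 4 cells met the replication pattern and 0 the mitosis pattern. Over all cells 24 members had 0 counts, 10 of them replication and 14 mitosis genes. At the summed depth a count of 0 allows up to 0.0339 CPM, a bound for counting error only. Of all 44 members, 18 (40.9%) reached 10 counts in at least 1 cell, beside 38.5% of 21992 protein coding genes. Of these 18, 11 did so in a single cell, 6 in 3 or more cells and 0 in all 12. Ccne2 with 3 counts and Kif20b with 8 never reached 10. Of the 528 pairs of a member and a cell, 53 had at least 10 counts, 34 had 1 to 9 and 441 had 0.

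**Figure D1:**
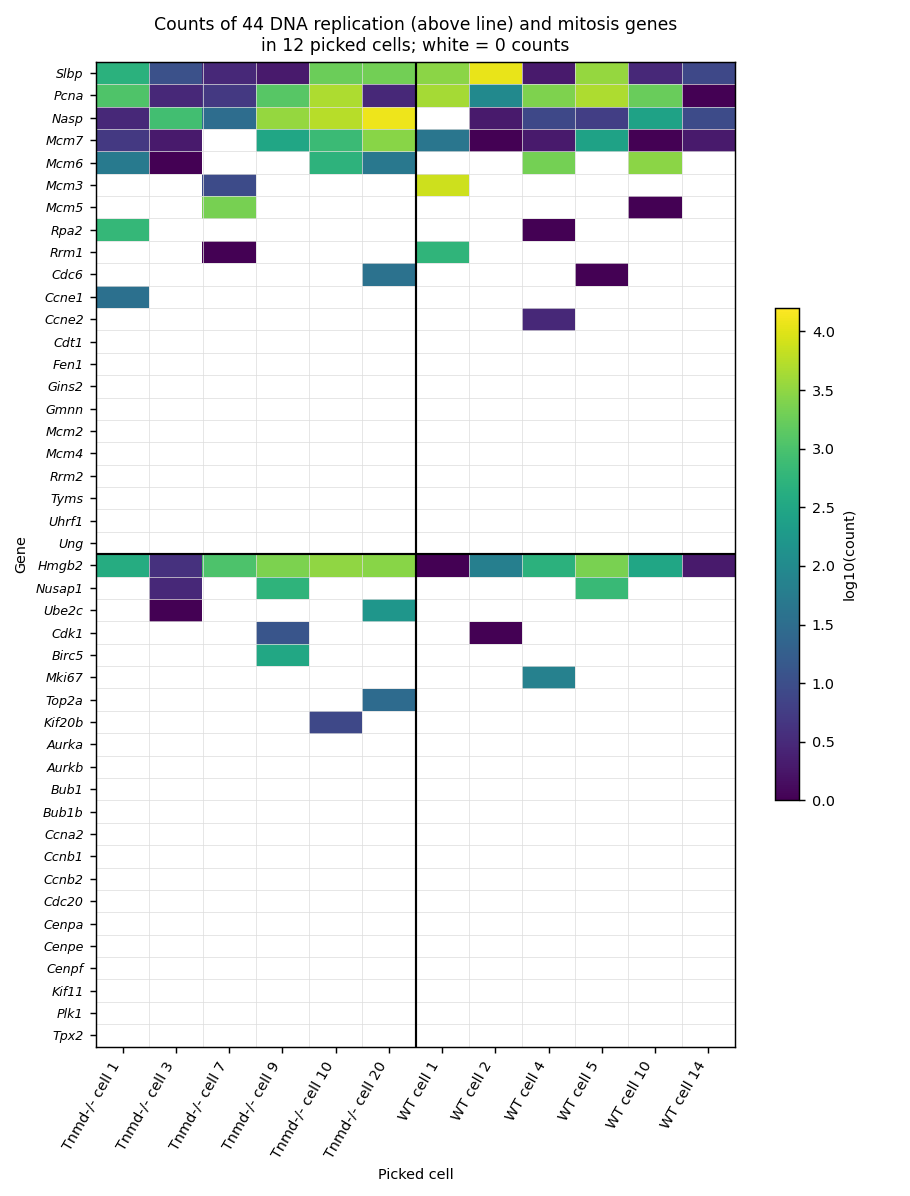
Heat map of the raw counts (log10 colour scale, white for 0) of the 22 replication members above the black line and the 22 mitosis members below it, in the 6 Tnmd-/- cells on the left and the 6 WT cells on the right. Slbp, Pcna and Hmgb2 had a count in all 12 cells, while 24 rows are white throughout.

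How much a count of 0 in a single cell can say is limited, and genes that every nucleated cell transcribes show how far. Of the 12 subunits of RNA polymerase II, 0 to 7 reached 10 counts in a Tnmd-/- cell and 0 to 10 in a WT cell. Of these subunits 1 had 0 counts in all 12 cells, as 24 members did. Tnmd-/- cell 3 and WT cell 14 had none of them at 10 counts. Tnmd-/- cells 7 and 20 had 1 each, and WT cells 1 and 2 had 2 and 3. In all of these cells 0 counts of a cycling gene say little. Over all cells 33.3% of the pairs of a polymerase subunit and a cell reached 10 counts, against 14.0% for the replication members, 6.06% for the mitosis members and 10.8% for all protein coding genes. No cell known to be dividing was among the 12, so the number of members such a cell would show in these libraries was not measured.

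The numbers per cell overlapped between the genotypes. Replication members with at least 10 counts numbered 5, 2, 2, 3, 5 and 5 in Tnmd-/- cells 1, 3, 7, 9, 10 and 20, and 5, 2, 2, 3, 3 and 0 in WT cells 1, 2, 4, 5, 10 and 14. Mitosis members numbered 1, 0, 1, 4, 1 and 3 in the same Tnmd-/- cells and 0, 1, 2, 2, 1 and 0 in the WT cells. The highest sums were 8 of 44 members in Tnmd-/- cell 20 and 7 in Tnmd-/- cell 9, against 5 in WT cells 1 and 5. With every cell thinned to 892713 counts, these 4 cells kept 5, 6, 4 and 5 members.

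**Figure D2:**
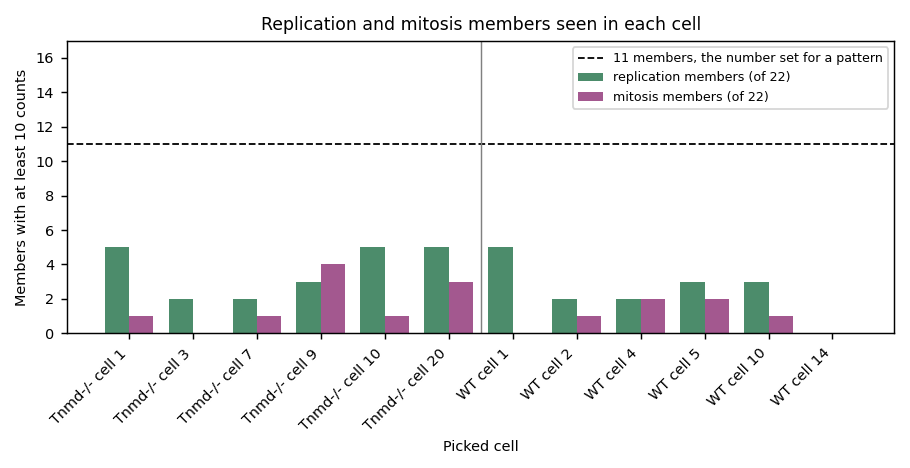
Bars give the number of replication members (green) and mitosis members (purple) with at least 10 counts in each picked cell, and the dashed line marks the 11 of 22 members set as a pattern. Every bar ends at 5 or below, and WT cell 14 has none.

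Among the licensing genes, the helicase subunits were found singly or in pairs and never as a whole complex. Mcm2 and Mcm4 had 0 counts in every cell. Mcm3 had 7655 counts in WT cell 1 and 9 in Tnmd-/- cell 7, while Mcm5 had 2144 counts in Tnmd-/- cell 7 and 1 in WT cell 10. These subunits work as a single ring of 6 proteins, yet no cell had more than 2 of their transcripts at 10 counts.

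Mcm6 had 54, 1, 0, 0, 524 and 48 counts in Tnmd-/- cells 1, 3, 7, 9, 10 and 20, and 0, 0, 2118, 0, 2991 and 0 in WT cells 1, 2, 4, 5, 10 and 14. The genotypes overlapped, with the highest values in WT cells 4 and 10. Over the summed counts the Mcm6 levels were 17.9 CPM (Tnmd-/-) and 95.6 CPM (WT), a log2 ratio of -2.42 (95% interval -2.54 to -2.30). Leaving out WT cell 10 gave -1.57, and leaving out Tnmd-/- cell 10 gave -4.52.

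Mcm7 had 5, 2, 0, 307, 732 and 2836 counts in the Tnmd-/- cells in the same order, and 44, 1, 2, 267, 1 and 2 in the WT cells. It was high in Tnmd-/- cells 20, 10 and 9, while cells 1 and 3 lay within the WT range and cell 7, at 0 counts, below it. The pooled log2 ratio was 4.22 (4.06 to 4.39), 2.64 without Tnmd-/- cell 20 and 6.52 without WT cell 5. Of the Mcm7 exon bases, 12.6% also lie in exons of other genes, mainly Ap4m1 and Cops6 on the opposite strand, and the strand setting of the counting is not given in the sources used here.

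The loaders and their brake were nearly silent. Cdc6 had 38 counts in Tnmd-/- cell 20 and 1 in WT cell 5, and Cdt1 and Gmnn, which encodes the Cdt1 inhibitor geminin, had 0 counts in every cell. The same held for Gins2, a subunit of the active helicase, although 67.3% of its exon bases lie in those of Gse1. Ccne1, the cyclin E gene that acts at entry into S phase, had 36 counts in Tnmd-/- cell 1 and none elsewhere, and its relative Ccne2 had 3 counts in WT cell 4.

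Pcna, the clamp that holds DNA polymerase on its template, was the replication member seen in most cells. Its counts were 1107, 3, 5, 1281, 4797 and 3 in Tnmd-/- cells 1, 3, 7, 9, 10 and 20, and 4322, 99, 2421, 4818, 1746 and 1 in WT cells 1, 2, 4, 5, 10 and 14. Counts of 10 or more were reached by 3 Tnmd-/- and 5 WT cells, and the ranges overlapped almost fully. The pooled log2 ratio was -0.29 (-0.33 to -0.25), from levels of 205 CPM (Tnmd-/-) and 251 CPM (WT). It was -1.37 without Tnmd-/- cell 10, and turned to 0.10 without WT cell 1 and to 0.02 without Tnmd-/- cell 20. Thinning all cells to 892713 counts gave -0.98, and equal weights for cells gave -0.86. The clamp also serves DNA repair, and 10.1% of its 100-base exon stretches occur in the exons of other genes, such as the pseudogene Pcna-ps2.

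The remaining fork and nucleotide genes were found in single cells or not at all. Rpa2 had 626 counts in Tnmd-/- cell 1 and 1 in WT cell 4. Rrm1, the large subunit of ribonucleotide reductase, had 556 counts in WT cell 1 and 1 in Tnmd-/- cell 7. Its partner Rrm2, the subunit that is made in S phase, had 0 counts in all 12 cells. So did Tyms for thymidylate synthase, Ung for uracil removal, Uhrf1 for the upkeep of DNA methylation and Fen1 for flap removal, of whose exon bases 84.2% are shared with other genes.

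Slbp, which binds the stem-loop of replication-dependent histone mRNAs, had a count in all 12 cells. Its counts were 490, 11, 3, 2, 1831 and 2017 in Tnmd-/- cells 1, 3, 7, 9, 10 and 20, and 2912, 11328, 2, 3444, 3 and 8 in WT cells 1, 2, 4, 5, 10 and 14. In both genotypes 3 cells had 490 counts or more and 3 had 11 or fewer, and the genotypes overlapped. Pooled levels were 124 and 331 CPM, a log2 ratio of -1.42 (-1.46 to -1.37). WT cell 2 alone held 64.0% of the WT counts, and leaving it out brought the ratio to -0.08. With equal weights for cells, TMM factors, DESeq2 factors and thinning it was -2.43, -2.69, -2.88 and -2.50.

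Among the 5 replication members at 10 counts in 3 or more cells, Nasp had the largest contrast between the pooled genotypes. Larger pooled log2 ratios were those of Mcm5 (11.7), Rpa2 (9.90), Mcm3 (-9.13) and Rrm1 (-8.51), each at 10 counts in only 1 cell. The gene lies at chr4:116601052-116627941 on the minus strand (GRCm38, ENSMUSG00000028693), and none of its 7518 exon bases lies in an exon of another gene. It had 3, 858, 32, 3495, 5566 and 12503 counts in Tnmd-/- cells 1, 3, 7, 9, 10 and 20, and 0, 2, 8, 6, 264 and 9 in WT cells 1, 2, 4, 5, 10 and 14. As CPM these were 0.565, 570, 35.8, 338, 540 and 1854 for Tnmd-/- and 0, 0.414, 0.641, 0.499, 19.4 and 1.99 for WT. Thus 5 of 6 Tnmd-/- cells lay above every WT cell, while Tnmd-/- cell 1 lay inside the WT range. No member, Nasp included, had CPM ranges that did not overlap between the genotypes, and 0.041% of the 9768 genes with at least 20 counts had such ranges. How many genes had 5 of 6 cells of a genotype apart, as Nasp did, was not counted.

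Over the summed counts Nasp stood at 640 CPM (Tnmd-/-) and 5.41 CPM (WT), a log2 ratio of 6.89 (6.72 to 7.06). The size of the ratio hung on few cells. Tnmd-/- cell 20 held 55.7% of the Tnmd-/- counts, and leaving it out gave 6.02. WT cell 10 held 91.3% of the WT counts, and leaving it out gave 9.99. Without the 3 cells with the fewest genes it was 6.85. After thinning it was 7.83, and with DESeq2 size factors 8.42.

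**Figure D3:**
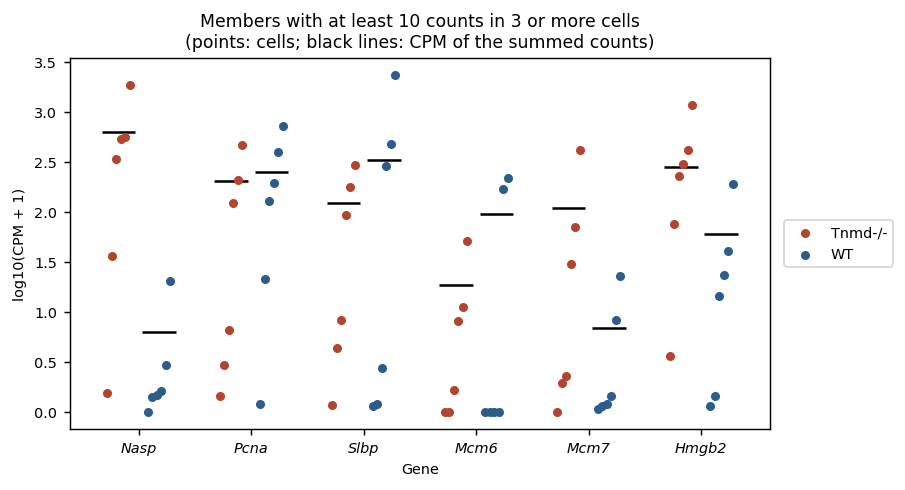
CPM of the 6 members with at least 10 counts in 3 or more cells, as log10(CPM + 1), with 1 point per cell (red Tnmd-/-, blue WT) and a black line at the level of the summed counts. For Nasp 5 of 6 red points lie above all blue points. The points of the other 5 genes overlap, though most red points of Hmgb2 also lie above all blue points.

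The sum of the other 21 replication members was lower in the Tnmd-/- cells by pooled counts and higher under TMM and DESeq2 scaling. Pooled, it came to 539 CPM (Tnmd-/-) and 837 CPM (WT), a log2 ratio of -0.64 (-0.66 to -0.61), which lay between -0.91 and -0.19 when each cell was left out. With equal weights for cells and TMM or DESeq2 size factors it was 1.25 and 1.74, and with Tnmd-/- cell 7 left out of these it was -1.53 and -1.75. In that cell Mcm5 alone had 2144 of the 2162 counts of the other replication members. Nasp took 54.3% of all replication counts of the Tnmd-/- and 0.642% of those of the WT cells.

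Levels of different genes were compared per length, as RPKM (CPM per kilobase of exon). In the summed Tnmd-/- cells Nasp was at 85.1 RPKM, next to Pcna at 85.5, with Mcm7 in the third place. In the summed WT cells Nasp ranked 7 of 22 at 0.719 RPKM, behind Pcna at 105 and Slbp at 54.5. Within single cells Nasp ranked 1 in Tnmd-/- cells 3 and 20, and 2 in cells 7, 9 and 10. It ranked 7 in Tnmd-/- cell 1, and with 2 to 264 counts it ranked 3 in WT cells 2, 4 and 10, 4 in WT cell 5 and 2 in WT cell 14, where the first, Slbp, had 8 counts. In Tnmd-/- cell 20, where Nasp reached 247 RPKM, Mcm7 was next at 95.0, Slbp was at 49.2 and Pcna was at 0.185. In Tnmd-/- cell 3 Nasp made up 98.1% of the replication counts, with Slbp next at 11 counts. High Nasp therefore occurred beside Pcna in cells 9 and 10 and with Pcna at 3 counts in cells 3 and 20. In WT cells 1 and 5, where Pcna was at 301 and 167 RPKM, Nasp had 0 and 6 counts.

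**Figure D4:**
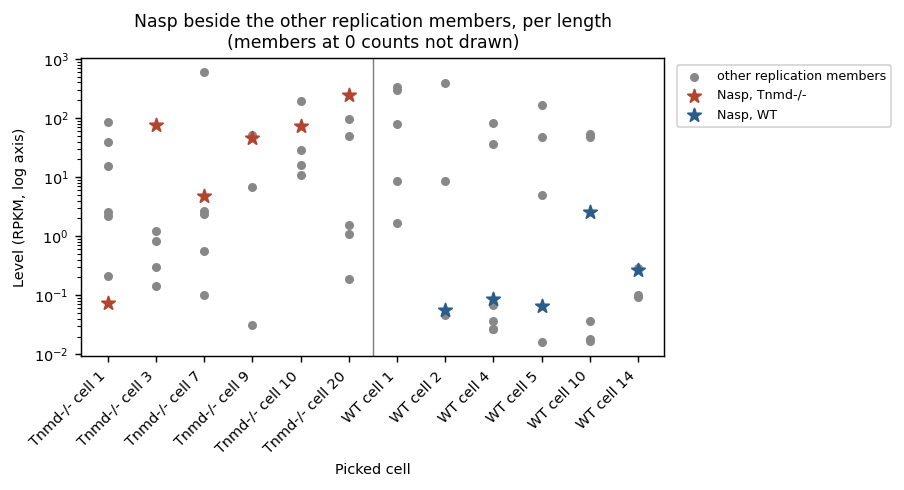
Level per length (RPKM, log axis) of Nasp (stars) and of the other replication members with at least 1 count (grey points) in each picked cell. Nasp is the highest or second highest point in Tnmd-/- cells 3, 7, 9, 10 and 20 and, at 0.265 RPKM, in WT cell 14, and is absent from WT cell 1.

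Nasp was seen in about as many cells as other histone chaperones. Of 25 such genes, 20 (80.0%) reached 10 counts in at least 1 cell, beside 38.5% of protein coding genes. The median over these 20 was 5 cells, and Nasp reached 10 counts in 6 cells. Npm1, which encodes nucleophosmin, had the highest level among them, at 3747 CPM (Tnmd-/-) and 699 CPM (WT), a log2 ratio of 2.42. Its Tnmd-/- cells split, with 4 cells at 3166 to 5374 CPM, above every WT cell (241 to 1336 CPM), and cells 3 and 7 at 40.5 and 72.8 CPM, below every WT cell.

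Of the 22 mitosis members, 7 (31.8%) reached 10 counts in at least 1 cell, beside 38.5% of protein coding genes, and Hmgb2 alone did so in more than 2 cells. The genes for the B cyclins, Ccnb1 and Ccnb2, and for cyclin A, Ccna2, had 0 counts in all 12 cells. So did the kinase genes Aurka, Aurkb, Plk1, Bub1 and Bub1b, the centromere genes Cenpa, Cenpe and Cenpf, the spindle genes Kif11 and Tpx2, and Cdc20, an activator of the anaphase-promoting complex. Cdk1, the catalytic partner of the mitotic cyclins, had 13 counts in Tnmd-/- cell 9 and 1 in WT cell 2. Mki67 had 70 counts in WT cell 4 and 0 in the other 11 cells. Top2a, which untangles sister chromatids, had 29 counts in Tnmd-/- cell 20 and 0 elsewhere. No cell held more than 1 of Mki67, Top2a, Cdk1 and Ccnb1 at any count.

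Of the remaining mitosis members, 3 passed 100 counts in a cell. Birc5, which encodes survivin of the chromosomal passenger complex, had 331 counts in Tnmd-/- cell 9 and none elsewhere. Nusap1, a spindle-associated protein, had 539 counts in Tnmd-/- cell 9, 695 in WT cell 5 and 3 in Tnmd-/- cell 3. Ube2c, the ubiquitin-conjugating enzyme of the anaphase-promoting complex, had 158 counts in Tnmd-/- cell 20 and 1 in Tnmd-/- cell 3, and 22.8% of its exon bases lie in those of Tnnc2 on the opposite strand. Kif20b, a mitotic kinesin, had 8 counts in Tnmd-/- cell 10.

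Hmgb2, a chromatin protein that bends DNA and is abundant in proliferating cells, had a count in every cell. Its counts were 398, 4, 1064, 2387, 3156 and 2841 in Tnmd-/- cells 1, 3, 7, 9, 10 and 20, and 1, 66, 501, 2307, 311 and 2 in WT cells 1, 2, 4, 5, 10 and 14. Counts of 10 or more were reached by 5 Tnmd-/- and 4 WT cells, and the ranges overlapped through Tnmd-/- cell 3 and WT cell 5. Pooled levels were 281 and 59.7 CPM, a log2 ratio of 2.23 (2.18 to 2.29). It was 1.96 at the lowest and 3.72 at the highest when each cell was left out, the latter without WT cell 5. With equal weights for cells it was 3.05, and with TMM and DESeq2 factors 4.69 and 5.54. Of its 100-base exon stretches, 16.7% occur in exons of other genes, such as Gm4739, so a part of its counts is uncertain.

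With Hmgb2 making up most of the counts, the summed mitosis members were higher among the Tnmd-/- cells, at 312 against 74.0 CPM (log2 ratio 2.07, interval 2.02 to 2.13). Without it, the sums of the other 21 mitosis members were 30.8 and 14.3 CPM, a log2 ratio of 1.11 that rested on Birc5 and Nusap1 in Tnmd-/- cell 9 and Nusap1 in WT cell 5. Leaving out WT cell 5 raised the ratio of all mitosis members to 3.76, and TMM and DESeq2 factors raised it to 4.42 and 5.26.

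Each of the cells with the most members had its own combination of them. Tnmd-/- cell 20 had Nasp, Mcm7, Slbp, Mcm6 and Cdc6 with Hmgb2, Ube2c and Top2a, and had 3 counts of Pcna and none of Rrm2, Tyms or Cdk1. Only 1 of the 12 RNA polymerase II subunits reached 10 counts in Tnmd-/- cell 20, so its counts of 0 say little. Tnmd-/- cell 9 had Nasp, Pcna and Mcm7 with Hmgb2, Nusap1, Birc5 and Cdk1. It had 0 counts of Mki67, Top2a and every cyclin among the 44 members. WT cell 4, the only cell with Mki67, had Pcna, Mcm6 and Hmgb2 besides. WT cell 1 had Mcm3, Pcna, Slbp, Rrm1 and Mcm7, and 1 count in all over the mitosis members, from Hmgb2. WT cell 14 had 22 counts over all 44 members.

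Differences between the pooled genotypes of the size seen in the members were frequent over all genes. Among the 17 members with at least 20 counts, 9 were at least 2-fold higher in the Tnmd-/- cells on the log2(CPM + 1) scale, beside 35.5% of the 9768 genes with that many counts. A further 5 were at least 2-fold lower, beside 34.9% of all genes, and 3 (Pcna, Nusap1 and Top2a) lay between. Of the 14 called members, 9 had at least 10 counts in a single cell only, so that each such difference is that of 1 cell. The median over the 17 members was 1.02, against 0.06 over all such genes, whose quartiles were -2.14 and 1.91. Against a floor of 3 counts over the WT cells, the log2 ratio was at least 7.39 for Birc5, 6.34 for Ube2c, 4.19 for Ccne1 and 3.88 for Top2a. For Mki67, with 0 counts in the Tnmd-/- cells, it was -3.94 or below.

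Further genes of both processes were also examined. Of 48 other replication genes, 30 (62.5%) reached 10 counts in at least 1 cell, beside 38.5% of protein coding genes, and 16 had 0 counts throughout, with 11 at least 2-fold higher and 10 lower in the Tnmd-/- cells among 27 with at least 20 counts (35.5% and 34.9% of all such genes). The highest were Pold2, a subunit of DNA polymerase delta, and Orc2, a subunit of the origin recognition complex, each at 10 counts in 3 cells. Of 50 other mitosis genes, 13 (26.0%) reached 10 counts and 28 had 0 counts, with 6 higher and 4 lower among 12. Smc4, a condensin subunit, and Cks1b, a Cdk-binding protein, led these with at least 10 counts in 4 cells each. Smc4 had 3552 counts in Tnmd-/- cell 20, 2013 in cell 10 and 612 in cell 1, and 989 in WT cell 10.

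In contrast, Cdkn1a was present in every cell. It encodes p21, an inhibitor of cyclin-dependent kinases that halts the cycle in G1, and ranked 30 of all genes by pooled CPM. Its counts were 21160, 158, 8860, 32499, 35039 and 30942 in Tnmd-/- cells 1, 3, 7, 9, 10 and 20, and 53320, 5215, 40250, 70427, 15495 and 4578 in WT cells 1, 2, 4, 5, 10 and 14. The lowest value was in Tnmd-/- cell 3, and the genotypes overlapped. Pooled levels were 3667 and 3542 CPM, a log2 ratio of 0.05 (0.04 to 0.06). In all, 23 regulators of G1 and of exit from the cycle were examined. Of these, 16 (69.6%) reached 10 counts in at least 1 cell, beside 38.5% of protein coding genes. Among the 23 regulators Ccnd2, which encodes cyclin D2, did so in 10 cells. Ccnd1 had 901 counts in WT cell 4 and 0 in the other cells.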

How the data were processed

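RNA of single picked ScxGFP+ cells was amplified by Smart-Seq2, which reads cDNA along the transcript and tags no molecules. Per the labels and the study's methods, the authors aligned reads with STAR 2.5.1b to GRCm38 and used featureCounts (Subread 2.0.0) to count them per gene. Deposited values are the authors' raw read counts per gene and cell, with no normalization or correction, and were checked to be whole numbers. The strand setting is not given in the sources used here.

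CPM used each cell's total (892713 to 13613080 counts), or the summed total of a genotype. Exact Poisson and Clopper-Pearson intervals at 95% and a floor of 3 counts cover counting error only. PCR copies are not independent molecules, and cells differ by far more than these intervals. As no label names an animal, a genotype was 1 sample and no p-value was computed. No pair of cells was identical. A gene counted as seen in a cell at 10 counts, and a pattern needed 11 of 22 members. Ratios over many genes used genes with at least 20 counts and added 1 CPM. Values in every cell are given for Nasp, Mki67, Top2a, Pcna, Cdk1, Ccnb1 and members at 10 counts in at least 3 cells. Of the other lists at most 5 genes, those with the highest pooled CPM, are named, apart from Tnmd and Scx as label checks and Ccnd1, which was chosen after its values were seen.

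The members and lists were chosen with earlier results of these data known. Gene positions and exon overlaps came from GENCODE M21, in which all 55418 symbols were found, and upstream sequences from RefSeq. Alternatives used edgeR 4.0.16 TMM factors, DESeq2 1.42.0 size factors, equal weights, thinning and cells left out. Scripts ran in Python 3.11.15 and R 4.3.3 and were tested on simulated counts. The degradation levels that the study assigned to cells are in no label and were not used.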

Additional observations from a re-analysis of the deposited data

Results flagged for a closer look

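Values per cell were compared within each genotype for 10 measures of these genes. In 11 of the 20 sets of 6 cells, the highest cell stood apart from the next by more than 0.625 of the set's whole range. Such gaps are common in counts that are near 0 in most cells. The limit flags about 1 set in 20 only where values are independent and normally distributed. These values are skewed and the sets share genes, so the 11 sets cannot be held against that rate.

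For Nasp, Tnmd-/- cell 20 was at 1854 CPM, with Tnmd-/- cell 3 next at 570, and WT cell 10 was at 19.4 CPM, with WT cell 14 next at 1.99. For Hmgb2, Tnmd-/- cell 7 was at 1192 CPM against 421 in cell 20, and WT cell 5 was at 192 CPM against 40.2 in cell 4. Slbp was at 2347 CPM in WT cell 2 and 486 in WT cell 1. Mcm6 was at 50.9 CPM in Tnmd-/- cell 10 and 10.2 in cell 1. Mcm7 was at 421 CPM in Tnmd-/- cell 20 and 71.0 in cell 10, and at 22.2 CPM in WT cell 5 and 7.34 in WT cell 1.

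The summed replication members without Nasp reached 2422 CPM in Tnmd-/- cell 7, with 765 in cell 10. The summed mitosis members reached 1192 CPM in Tnmd-/- cell 7, with 449 in cell 20, and 249.8 CPM in WT cell 5, with 45.8 in WT cell 4. Tnmd-/- cell 7 has the lowest total, and its 2 sums come almost wholly from Mcm5 and Hmgb2.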

How the results depend on the processing

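No cell met the replication or the mitosis pattern at 10 counts or at the looser limit of 1 count. A limit of 30 counts, thinning and leaving out cells cannot raise a number of 0. Their results of 0 were therefore fixed in advance and say nothing about the pattern. With 5 of 22 members as the limit, 4 cells met the replication pattern and 0 the mitosis pattern. The number of members seen was 13 to 20 in the settings tried, and 15 to 18 with a cell left out. The Nasp ratio stayed positive throughout: it was 7.19 with equal weights for cells, 8.42 with DESeq2 size factors and 7.83 after thinning. With the shallowest cell (Tnmd-/- cell 7) also left out, it was 7.43 with equal weights, 7.19 with TMM and 8.63 with DESeq2 factors. Leaving out each cell gave 6.02 to 9.99. The ratio of the replication members without Nasp was -0.50 with equal weights, -0.66 over totals without mitochondrial and top genes, -0.51 thinned and -0.84 without the 3 cells with the fewest genes. It was reversed to 1.25 with TMM and 1.74 with DESeq2 factors. Without the shallowest cell it was -1.34, -1.53 and -1.75 with equal weights, TMM and DESeq2 factors, so that cell decides the sign. Leaving out each cell gave -0.91 to -0.19. The ratio of the mitosis members was 2.82, 4.42 and 5.26 with equal weights, TMM and DESeq2 factors, 2.84 thinned, 1.90 without the 3 cells and 1.11 without Hmgb2. Without the shallowest cell it was 1.83 with TMM and 1.88 with DESeq2 factors, and with each cell left out 1.77 to 3.76. Members at least 2-fold higher numbered 6 to 10 and those lower 4 or 5, and 3 to 6 lower with a cell left out, the 3 without WT cell 1. The median log2 ratio of all genes was 0.06 pooled, -0.04 with equal weights for cells, -0.05 with TMM factors added and 0.16 with DESeq2 factors added. The settings that leave out the 3 cells, the shallowest cell or Hmgb2, and those that leave out cells for the patterns and the members seen, were chosen after seeing the data. No paired analysis was possible because cell numbers only name picked cells and no result comes from a test. Depth limits what 0 counts show: 3 counts are 0.220 to 3.36 CPM in a single cell.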
